A study of Mus musculus with 6 samples.

Results

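The HoxB genes are 10 homeobox transcription factor genes, Hoxb1 to Hoxb9 and Hoxb13, of 1 cluster on mouse chromosome 11. They were chosen by name. All probe sets whose only gene symbol in the platform annotation is one of these names were taken, which gave 11 probe sets for 9 of the 10 genes, among 45037 probe sets and 18193 genes measured. Hoxb8 has no probe set of its own on this platform, and a probe set annotated to both Hoxb8 and Hoxb7 is described apart.

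RNA was compared between lung cells of Bmi1 mutant mice, whose genotype the labels give as Bmi1 null, and lung cells of Bmi1 wild-type mice. Each genotype had 3 arrays of an Affymetrix whole-genome mouse expression type. All mice were 4-month-old females on a mixed Bl6/129 background. The labels call the arrays biological replicates without saying whether an array came from 1 mouse or several, so every p reflects only how these arrays spread, which may be technical. The cells were used without culture after a sort for live cells lacking CD31, a surface protein of endothelial cells, and CD45, a surface protein of blood cells.

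Hox genes sit in 4 clusters, HoxA to HoxD, and genes with the same number in different clusters are paralogs that descend from a common ancestral gene. Their order along the chromosome matches the order in which they act along the body, low numbers towards the head and high numbers towards the tail. Polycomb complexes, of which the Bmi1 protein is a subunit, keep Hox genes silent where they are not used. In the lung the middle genes of HoxB, among them Hoxb5, are known from the mesenchyme, the connective tissue that surrounds the airways, where Hoxb5 takes part in airway branching.

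Signals are the authors' linear probe-set intensities. Differences are mutant minus wild type on the scale log2(signal + 16), tested with limma across all genes. A gene was called at a Benjamini-Hochberg adjusted p under 0.05. The offset of 16 damps noise, and a signal below it has little weight. No detection call accompanied the signals, and signals of different probe sets are not compared as levels. Array medians lay between 97.4 and 112 in the mutant-labelled arrays and between 112 and 114 in the wild-type arrays. Bmi1 RNA, the check on the labels, was not lower in the mutant-labelled arrays. The Bmi1 probe set that stood for the gene read 1276, 1498 and 1565 in the mutant-labelled arrays, against 996, 979.8 and 1164 in the wild-type arrays, a log2 difference of 0.46 ± 0.17 (SE, limma adjusted p = 0.282). The other read 637, 535 and 824 against 545, 535 and 684. The labels do not say which part of Bmi1 is missing, so the directions given here rest on the labels. RNA of the genes for both sorted-out proteins was present. Ptprc, which encodes CD45, read 5767 ± 852 in the mutant-labelled arrays and 7716 ± 966 in the wild-type arrays, and Pecam1, which encodes CD31, read 2939 ± 247 and 2247 ± 506 (SD, n = 3 each).

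The RefSeq promoter table of build GRCm38.p6 held 3 of the 10 genes. Each window runs from 250 bases before to 50 bases after the start and lies on the plus strand of chromosome 11. All 3 are shown, because no other HoxB gene was in the table. Hoxb8 belongs to the probe set with the clearest difference, Hoxb4 had signal in every array, and the mutant-labelled arrays lay below the wild-type arrays for Hoxb1. Capitals mark matches, on either strand, to TGATNNAT, a form of the site that Hox proteins bind together with their Pbx partners.
Hoxb8, chr11:96281655-96281954: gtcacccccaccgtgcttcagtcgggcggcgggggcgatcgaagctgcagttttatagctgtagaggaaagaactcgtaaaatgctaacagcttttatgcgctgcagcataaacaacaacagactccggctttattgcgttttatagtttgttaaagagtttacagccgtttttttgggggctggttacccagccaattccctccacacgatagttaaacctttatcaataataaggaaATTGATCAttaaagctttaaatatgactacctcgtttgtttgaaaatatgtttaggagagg
Hoxb4, chr11:96318017-96318316: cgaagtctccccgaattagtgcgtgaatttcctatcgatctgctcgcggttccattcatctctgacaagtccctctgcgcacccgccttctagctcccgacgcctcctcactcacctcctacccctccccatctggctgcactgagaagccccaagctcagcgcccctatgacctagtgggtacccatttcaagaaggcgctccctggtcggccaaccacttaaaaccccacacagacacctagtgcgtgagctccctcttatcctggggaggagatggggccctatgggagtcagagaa
Hoxb1, chr11:96365508-96365807: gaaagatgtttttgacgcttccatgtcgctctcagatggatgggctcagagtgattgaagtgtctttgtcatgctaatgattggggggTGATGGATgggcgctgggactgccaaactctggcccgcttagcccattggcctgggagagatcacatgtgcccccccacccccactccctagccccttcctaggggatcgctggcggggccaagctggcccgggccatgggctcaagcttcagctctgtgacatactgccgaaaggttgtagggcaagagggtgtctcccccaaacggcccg
The motif occurred 1 time in the windows of Hoxb8 and Hoxb1 and 0 times in that of Hoxb4, and 8.85% of 32851 windows of the same length in the table held it. The windows held 13 CpG dinucleotides for Hoxb8, 14 for Hoxb4 and 10 for Hoxb1, against a median of 7 in all windows. These counts were not extreme, since 62.1%, 63.7% and 56.5% of all windows held fewer. A match describes the letters and is not evidence of binding.

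None of the 9 measured HoxB genes passed the test: limma called 0 higher and 0 lower, where it called 0.412% of all genes higher and 0.511% lower. At an unadjusted p under 0.05 there were 3 (Hoxb1, Hoxb3 and Hoxb6), against 14.5% of all genes. The log2 difference lay above 0 for 7 of the 9, against 50.7% of all genes. The median over the 9 was 0.55, against 0.01 over all genes. The genotypes did not overlap for 2 genes with the higher signals in the mutant-labelled arrays (Hoxb6 and Hoxb13), where 10.4% of all genes showed this, and for 1 gene with the lower signals (Hoxb1), where 10.0% did. With 9 genes, the counts called and the counts without overlap were near these backgrounds and are not read as a result about the cluster.

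**Figure D1:**
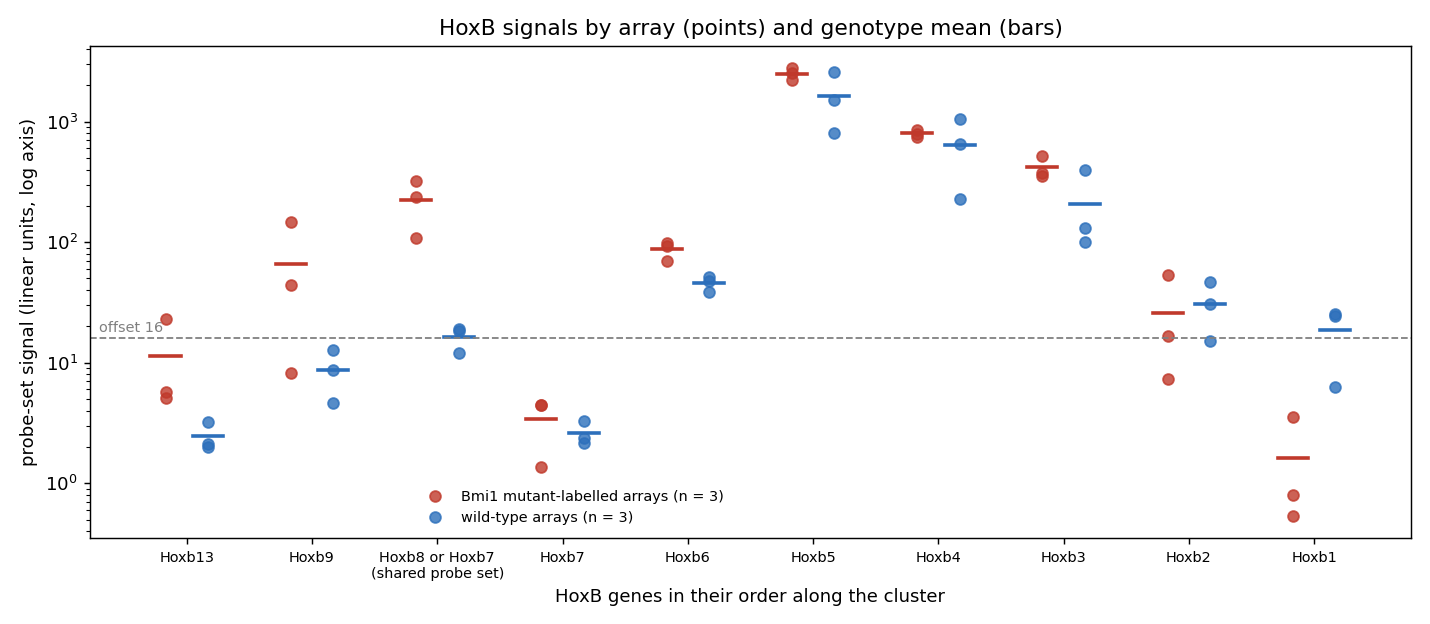
Probe-set signal (linear units, log axis) of each HoxB gene in the order of the cluster; points are arrays, red for the 3 mutant-labelled and blue for the 3 wild-type arrays, bars are genotype means, and the dashed line is the offset of 16. Hoxb5 lay between 2227 and 2765 in the mutant-labelled arrays and between 810 and 2557 in the wild-type arrays, while the probe set shared by Hoxb8 and Hoxb7 lay between 109 and 320 and between 12.0 and 18.9.

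Hoxb3, Hoxb4 and Hoxb5, the middle of the cluster, carried signal in every array, and their wild-type arrays spread widely. Hoxb5 read 2509, 2227 and 2765 in the mutant-labelled arrays, against 2557, 1508 and 810 in the wild-type arrays. The mutant-labelled arrays were close together, and the highest wild-type array lay among them. They averaged 2501 ± 269 against 1625 ± 879 (SD, n = 3 each). In log2 the difference was 0.76 ± 0.39 (SE), with a limma adjusted p of 0.440. Its 95% interval, not adjusted for the number of genes, ran from -0.17 to 1.69. Leaving out wild-type replicate 1 gave 1.16 and leaving out wild-type replicate 3 gave 0.34.

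Hoxb4, known in blood stem cells for promoting self-renewal, has 2 probe sets. The one that stood for the gene read 794, 749 and 858 in the mutant-labelled arrays, against 1048, 648 and 229 in the wild-type arrays. Wild-type replicate 1 lay above all mutant-labelled arrays, and wild-type replicates 2 and 3 lay below them. The log2 difference was 0.55 ± 0.50 (SE, limma adjusted p = 0.680), with an interval from -0.63 to 1.73. Without wild-type replicate 3 it was -0.04 and without wild-type replicate 1 it was 1.01, so those arrays decided its sign and size. The second probe set read 150, 169 and 155 against 209, 137 and 156, a difference of -0.06 ± 0.20 (SE, limma adjusted p over all probe sets = 0.943). The probe sets of Hoxb4 thus differed in sign, and neither passed.

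Hoxb3, which with its neighbours patterns the hindbrain, also has 2 probe sets. The one that stood for the gene read 357, 376 and 522 in the mutant-labelled arrays, against 394, 132 and 99.5 in the wild-type arrays. Wild-type replicate 1 lay within the mutant-labelled range and the other wild-type arrays below it. The difference was 1.16 ± 0.47 (SE, limma adjusted p = 0.321), and its interval, again not adjusted for the number of genes, ran from 0.06 to 2.27. Without wild-type replicate 1 it was 1.71 (limma adjusted p = 0.0622), and without wild-type replicate 3 it was 0.80 (limma adjusted p = 0.588). The second probe set read 137, 201 and 171 against 232, 137 and 64.6, a difference of 0.34 ± 0.40 (SE, limma adjusted p over all probe sets = 0.780), which was -0.08 without wild-type replicate 3.

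With the probe sets that stood for them, these 3 genes followed the same order among the wild-type arrays, with replicate 1 highest and replicate 3 lowest. The second Hoxb3 probe set kept this order, but the second Hoxb4 probe set was lowest in wild-type replicate 2. Markers of mesenchymal cells had the same order as the 3 genes. The mean of 22 fibroblast markers on the log2 scale was 11.57, 11.57 and 11.50 in the mutant-labelled arrays and 11.31, 10.99 and 10.49 in wild-type replicates 1, 2 and 3. The mean of 14 smooth muscle and pericyte markers was 9.74, 9.57 and 9.68 against 9.15, 8.21 and 7.76. The means of neither list overlapped between the genotypes, though those of many single members did. Higher without overlap were 8 of 22 fibroblast and 9 of 14 smooth muscle and pericyte markers, and 0 were lower. Over all genes 10.4% were higher without overlap and 10.0% lower. The summed signal of the fibroblast markers ranged from 116448 to 125993 in the mutant-labelled arrays and from 68832 to 105998 in the wild-type arrays, and that of the smooth muscle and pericyte markers from 14769 to 17534 and from 5041 to 12091. By gene, 1 of 22 fibroblast markers and 0 of 14 smooth muscle and pericyte markers were called higher and 0 lower. Over all genes 0.412% were called higher and 0.511% lower. The 1 called was the collagen gene Col1a1, and 0 members of either list had a mean signal below 16.

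With the mean of the fibroblast markers as a covariate, the log2 differences became -0.06 for Hoxb3, -1.02 for Hoxb4 and -0.42 for Hoxb5 (limma adjusted p = 0.997, 0.655 and 0.917). In the same fit Hoxb6 was at 0.66 and Hoxb9 at 1.29, close to their values without the covariate, and neither passed (limma adjusted p = 0.818 and 0.940). Hoxb1 was at -0.37 and Hoxb2 at 0.19 (limma adjusted p = 0.952 and 0.993). The covariate itself separates the genotypes, and this fit called 0 of all genes, with 1196 at an unadjusted p under 0.05. Whether the wild-type arrays held RNA of fewer mesenchymal cells or less RNA per cell cannot be told apart in these bulk samples. Hematopoietic markers differed among themselves. Their list had means of 10.52, 10.71 and 10.42 in the mutant-labelled arrays against 11.02, 11.49 and 11.32 in the wild-type arrays, 5 of 18 measured called lower and 0 higher, 7 of 18 above 0, and overlapping summed signals of 80545 to 107675 against 74900 to 99331. Among those called were the B cell gene Ms4a1 (122.5 ± 17.3 against 1444 ± 170 in signal; SD, n = 3 each) and the cytotoxic lymphocyte gene Gzmb (440 ± 140 against 3086 ± 868; SD, n = 3 each). The genotypes did not overlap, with the mutant-labelled arrays higher, for 3 genes of myeloid cells that are named with their values known. These were S100a8 (11761 ± 4114 against 4124 ± 739; SD, n = 3 each), S100a9 (14994 ± 4208 against 6841 ± 1089; SD, n = 3 each) and Itgam (219 ± 105 against 90.3 ± 19.1; SD, n = 3 each), none of which passed (limma adjusted p = 0.0899, 0.115 and 0.229). Other myeloid genes of the list did not follow them. Itgax was lower without overlap (1380 ± 185 against 2762 ± 439, SD, n = 3 each), with a limma adjusted p of 0.0763. The genotypes overlapped for Adgre1, Csf1r, Cd68 and Lyz2. In the list 3 genes were higher and 7 lower without overlap, against 10.4% and 10.0% of all genes. None of the 18 had a mean signal below 16. Of 10 endothelial, 7 alveolar type 2, 9 airway and 5 mesothelial markers measured, 0 were called in either direction, where 0.412% of all genes were called higher and 0.511% lower. Their part in the HoxB values was not tested.

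**Figure D2:**
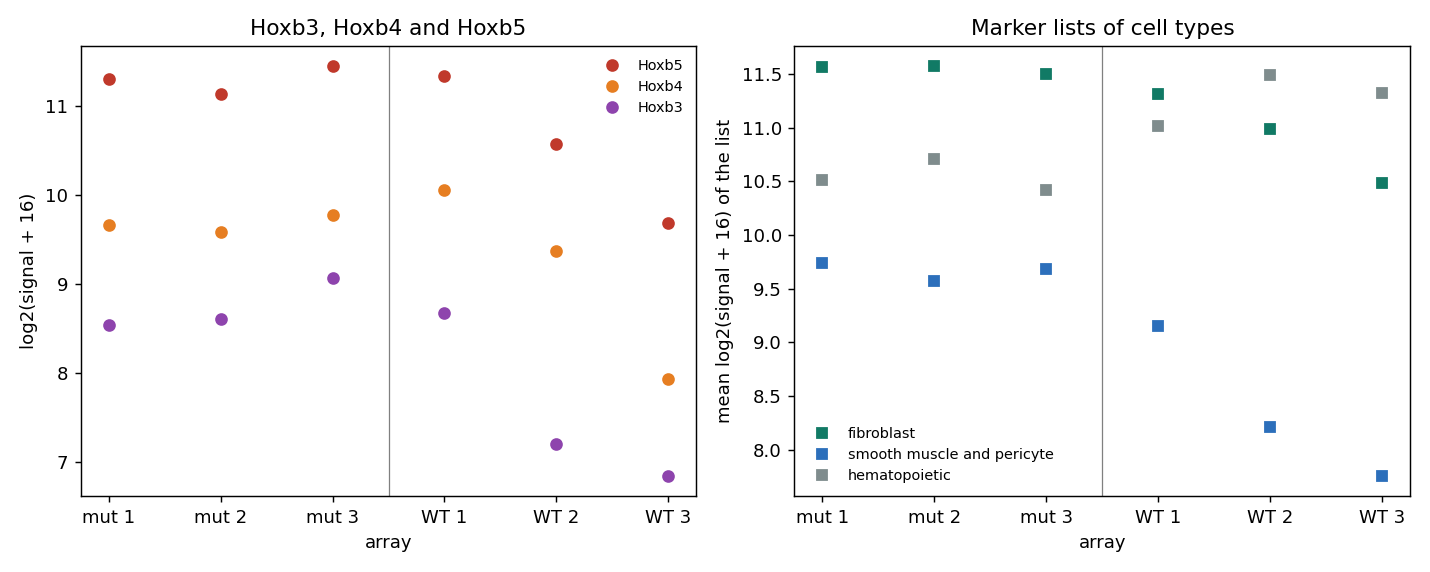
Left, log2(signal + 16) of Hoxb5, Hoxb4 and Hoxb3 in each array; right, mean log2(signal + 16) of the fibroblast, smooth muscle and pericyte, and hematopoietic marker lists in the same arrays, mutant-labelled left of wild type. In both panels wild-type replicate 3 is lowest for the HoxB genes and the mesenchymal lists, with the fibroblast mean at 10.49 against 11.50 to 11.57 in the mutant-labelled arrays.

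The genes whose pattern over the 6 arrays was most like each of these 3 were found among 11490 other genes with a mean signal of at least 100, by the root mean square difference of log2 values centred on each gene's own mean. For Hoxb5 they were P3h3, a collagen-modifying enzyme gene, at a distance of 0.086, and Limch1, an actin-binding protein gene, at 0.098. P3h3 read 496, 480 and 526 in the mutant-labelled arrays, against 509, 340 and 159 in the wild-type arrays. For Hoxb4 they were the growth factor gene Fgf7 (0.084) and the transcriptional regulator gene Prdm6 (0.086), and for Hoxb3 the actin-binding protein genes Flnc (0.159) and Synpo2 (0.188). Fgf7 had the wild-type order of Hoxb4, with 560, 441 and 561 in the mutant-labelled arrays, against 734, 431 and 142 in the wild-type arrays. Hoxb4 itself ranked 54 from the top in likeness to Hoxb5, at 0.21, and Hoxb5 ranked 17 in likeness to Hoxb4. Hoxb3 was less alike, ranking 224 from Hoxb5 (0.31) and 385 from Hoxb4 (0.46), while from Hoxb3 the ranks were 28 for Hoxb5 and 233 for Hoxb4. These distances describe 6 arrays and carry no test. P3h3 and Fgf7 were picked for likeness over the same arrays, so the order they share follows from the selection.

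Hoxb6, the next gene towards the tail end, was dim and differed more evenly. It read 99.2, 93.7 and 69.2 in the mutant-labelled arrays, against 51.7, 38.5 and 47.6 in the wild-type arrays. All mutant-labelled arrays lay above all wild-type arrays, with means of 87.4 ± 15.9 and 45.9 ± 6.73 (SD, n = 3 each). The difference was 0.73 ± 0.19 (SE), with the smallest limma adjusted p of the 9 genes, 0.146, and an interval from 0.28 to 1.18. It stayed between 0.46 and 0.91 under 15 other settings and passed in 0 of them.

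At the tail end of the cluster, the single-gene probe sets read below the offset in every wild-type array. Without detection calls, a low reading does not show that the RNA was absent. Hoxb9 read 44.1, 8.25 and 146 in the mutant-labelled arrays, against 8.68, 12.9 and 4.66 in the wild-type arrays. One mutant-labelled array, replicate 2, lay within the wild-type range, and the other two lay above it. The difference was 1.33 ± 0.63 (SE, limma adjusted p = 0.392). Mutant replicates 2 and 3 each decided its size, since leaving out replicate 2 gave 2.01 and leaving out replicate 3 gave 0.64, and neither value passed (limma adjusted p = 0.151 and 0.550). Hoxb13, which lies apart from the other members and is best known from the prostate and the tail region, read 5.67, 23.1 and 5.07 against 2.10, 3.23 and 2.02. Its genotypes did not overlap, but 5 of its 6 signals lay below the offset, and the difference was 0.50 ± 0.26 (SE, limma adjusted p = 0.446). Hoxb7 read 1.36, 4.43 and 4.47 against 2.15, 2.37 and 3.25 with its own probe set, all below the offset, a difference of 0.06 ± 0.16 (SE, limma adjusted p = 0.909).

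The probe set annotated to both Hoxb8 and Hoxb7 showed the clearest difference among the HoxB probe sets. It read 237, 320 and 109 in the mutant-labelled arrays, against 18.4, 12.0 and 18.9 in the wild-type arrays. Every mutant-labelled array lay far above every wild-type array, with means of 222 ± 107 and 16.4 ± 3.83 (SD, n = 3 each). The log2 difference was 2.77 ± 0.37 (SE), and the limma adjusted p over all 45037 probe sets was 0.0424, in a fit that called 0.187% of probe sets higher. Among all probe sets 8.11% had higher signals in the mutant-labelled arrays with no overlap. Its signal cannot be assigned to either gene from the annotation. Hoxb7's own probe set did not pass in the same fit (difference 0.06, limma adjusted p = 0.923).

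The call of the shared probe set was close to the threshold. It was lost with offsets of 1 and 64 (limma adjusted p = 0.0783 and 0.0656) and with the fibroblast covariate, where the difference was 2.71 (limma adjusted p = 0.731). A block on replicate number also lost it (limma adjusted p = 0.134), though the numbers were not taken as pairs. Leaving out mutant replicate 1 or 2 gave limma adjusted p values of 0.163 and 0.0887. Leaving out wild-type replicate 1, 2 or 3 gave limma adjusted p values of 0.107, 0.188 and 0.177. Such fits called few probe sets of any kind. Higher calls were 1 and 3 of 45037 without mutant replicate 1 or 2. They were 7, 0 and 0 without wild-type replicate 1, 2 or 3, and 0 with the covariate or the block. The loss of the call in those fits therefore says little about this probe set. The call was kept in 6 of the 15 other settings, with limma adjusted p values between 0.0083 and 0.0412. These were quantile normalization, median centring, the filter on mean signal, the trended robust prior, array weights and leaving out mutant replicate 3. The difference itself stayed above 0 in 15 of 15 other settings, between 1.75 and 3.57.

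The head end of the cluster was dim in both genotypes. Hoxb2, a hindbrain regulator, read 16.6, 7.28 and 53.2 in the mutant-labelled arrays, against 15.2, 46.9 and 30.4 in the wild-type arrays. The arrays overlapped throughout, and the difference was -0.26 ± 0.44 (SE, limma adjusted p = 0.848). Hoxb1, which marks the fourth rhombomere of the embryonic hindbrain, read 0.793, 3.57 and 0.535 against 6.34, 25.5 and 24.5. Its mutant-labelled arrays lay below all wild-type arrays, yet 4 of its 6 signals were under the offset. The difference was -0.93 ± 0.27 (SE, limma adjusted p = 0.187), with an interval from -1.57 to -0.29.

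HoxB was set beside the other clusters by counts. In HoxA 4 of 9 measured genes were called higher, in HoxC 0 of 7, in HoxD 3 of 8 and in HoxB 0 of 9, with 0 called lower in each. Over all genes 0.412% were called higher and 0.511% lower, so counts of 0 lie near that share. The medians of the log2 differences were 1.29 in HoxA, 0.83 in HoxC, 0.83 in HoxD and 0.55 in HoxB. For 8 HoxB genes the difference from the paralogs was tested directly: in each array the log2 value of the HoxB gene minus the mean of its measured HoxA and HoxD paralogs was formed and compared between the genotypes with a two-sided exact permutation test, for which 0.1 is the smallest p possible at this number of arrays. Adjusted over the 8 tests the smallest value was 0.2. No outcome could have passed 0.05 in this design, so the values below are sizes and not evidence for or against a difference from the paralogs.

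Hoxb1 minus Hoxd1 was lower in the mutant-labelled arrays by a log2 difference of -2.13, and Hoxd1, which read 32.1, 35.4 and 28.4 against 1.29, 6.48 and 7.06, was itself called higher (limma adjusted p = 0.0407). Since 4 of 6 Hoxb1 signals and 3 of 6 Hoxd1 signals lay below the offset, this size depended on it, at -5.54 and -0.80 under offsets of 1 and 64. Hoxb7 minus Hoxa7 differed by -1.23 and Hoxb13 minus the mean of Hoxa13 and Hoxd13 by -1.08. With all 6 Hoxb7 signals and 5 of 6 Hoxb13 signals below the offset, these sizes rest mainly on the paralogs, such as the difference of 1.29 of Hoxa7 (limma adjusted p = 0.0976), and do not measure the HoxB genes. Hoxb5 minus Hoxa5 was higher by 1.14, where Hoxa5, a lung mesenchyme regulator, read 290, 318 and 358 in the mutant-labelled arrays, against 511, 381 and 388 in the wild-type arrays, a difference of -0.38 ± 0.19 (SE, limma adjusted p = 0.409). In these 4 comparisons the genotypes did not overlap (exact permutation p = 0.1 each, the smallest possible).

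In the other 4 the genotypes overlapped, and single arrays moved the sizes. Hoxb9 minus the mean of Hoxa9 and Hoxd9 differed by -1.36 (exact permutation p = 0.3), or -0.78 without mutant replicate 2 and -2.13 without mutant replicate 3, while Hoxa9 and Hoxd9 were called higher with differences of 2.81 and 2.57 (limma adjusted p = 0.00995 and 0.0307). Hoxb3 differed from Hoxa3 and Hoxd3 by 1.1 (exact permutation p = 0.3), Hoxb4 from Hoxa4 by 0.69 (exact permutation p = 0.4) and Hoxb2 from Hoxa2 by -0.53 (exact permutation p = 0.5). Leaving out wild-type replicate 1 gave 1.65 for Hoxb3, leaving out wild-type replicate 3 gave 0.14 for Hoxb4, and leaving out single arrays gave -1.02 (mutant replicate 3) to -0.17 (mutant replicate 1) for Hoxb2. Hoxd8, a paralog of Hoxb8, was called with a difference of 3.93 (limma adjusted p = 0.00951). No measured HoxA or HoxD paralog stood beside Hoxb6. HoxC paralogs were not part of these comparisons. Their log2 differences were 1.66 for Hoxc4, 0.16 for Hoxc5, 1.28 for Hoxc6, 0.02 for Hoxc8, 1.05 for Hoxc9 and -0.06 for Hoxc13. None of them was called, and all signals of Hoxc8 and Hoxc13 lay below the offset.

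**Figure D3:**
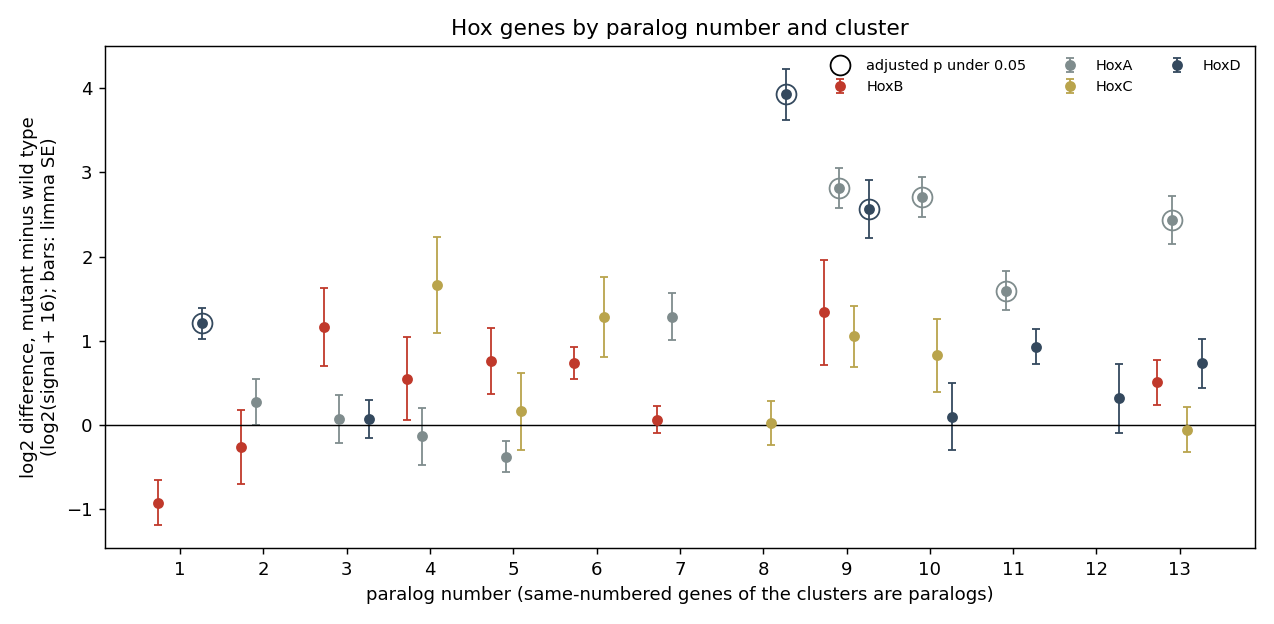
Log2 difference, mutant minus wild type, on the log2(signal + 16) scale for each measured Hox gene by paralog number, coloured by cluster; bars are limma SE and rings mark an adjusted p under 0.05. The 9 HoxB genes lie between -0.93 and 1.33 with no ring, and rings mark 4 HoxA and 3 HoxD genes.

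Genes that work with or lie beside HoxB were counted too. Hox proteins bind DNA with Pbx, Meis and Pknox partners, and of 8 measured partner genes 0 were called in either direction (median log2 difference -0.02). Retinoic acid turns on the head-end HoxB genes in embryos, and of 16 measured genes of its pathway 0 were called (median 0.12). Of 13 measured genes around the cluster 0 were called (median 0.31, differences from -1.06 to 1.91). Over all genes 0.412% were called higher and 0.511% lower, so counts of 0 in lists of this length are near that share. Hoxb5os, a noncoding RNA of the cluster, read 227, 195 and 201 in the mutant-labelled arrays, against 279, 108 and 99.7 in the wild-type arrays, with wild-type replicate 1 again the highest of its genotype. Its difference was 0.47 ± 0.36 (SE, limma adjusted p = 0.627). Skap1, a T cell adaptor gene next to Hoxb1, was picked out with its values known and read 332 ± 40.0 in the mutant-labelled arrays and 706 ± 71.9 in the wild-type arrays (SD, n = 3 each), a difference of -1.06 with a limma adjusted p of 0.0513. Of the 13 genes it was the 1 that was lower without overlap, where 10.0% of all genes were. Another 4 (Calcoco2, Igf2bp1, Nfe2l1 and Copz2) were higher without overlap, where 10.4% of all genes were.

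**Figure D4:**
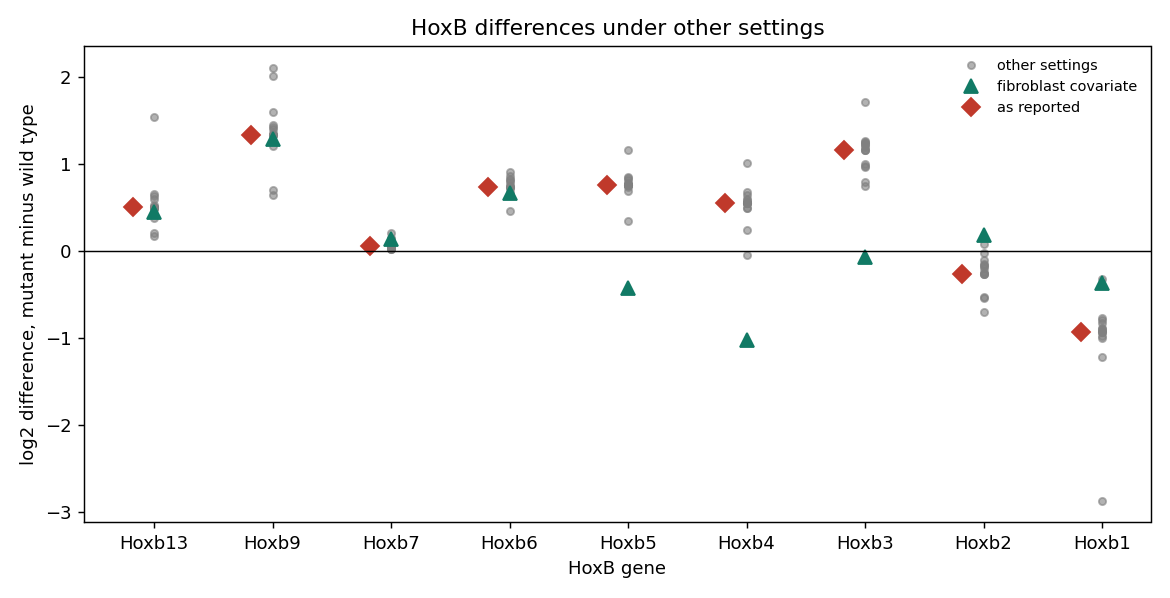
Log2 difference, mutant minus wild type, of each HoxB gene as reported (red diamonds), with the fibroblast covariate (green triangles) and under the other settings (grey points). Hoxb3, Hoxb4 and Hoxb5 fall below 0 with the covariate, at -0.06, -1.02 and -0.42, while Hoxb6 and Hoxb9 stay above 0 in every setting shown.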

How the data were processed

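Arrays of 2 genotypes, 3 per genotype, were analysed. The authors deposited linear probe-set intensity values and, per the submitters' processing notes, used Affymetrix Expression Console 1.1. The summarization method is not given in the sources used. The trimmed mean intensity was 500.002 on each array, so arrays had been scaled to a common mean, which hides a shift of all genes together.

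Values were taken as log2(signal + 16) with no further scaling. Of 45101 probe sets 64 controls were left out, and 34945 carried 1 symbol, 932 several and 9160 none. The brightest probe set, by mean log2 value over the arrays, stood for each of 18193 genes. Genotypes were compared in limma 3.58.1 (lmFit, eBayes; R 4.3.3) without covariates, Benjamini-Hochberg over all genes, or over all 45037 probe sets where stated, and checked on simulated data. Intervals are limma's, at 95% and with 6.93 degrees of freedom. The number of arrays limits the precision.

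Named were all members, their HoxA and HoxD paralogs, Bmi1, called members of fixed lists, and 2 genes most alike in pattern to each member with a mean signal of at least 100. Members and lists were chosen with earlier results of these data known. Same-numbered replicates of the genotypes deviated together weakly (correlations 0.073, 0.048 and 0.032), though more than differently numbered ones (-0.057 to 0.001). The numbers were not used as pairs, a choice that these values do not settle. Alternatives were offsets, scaling, a filter, probe-set averaging, priors, array weights, a replicate block, a fibroblast covariate and leaving out each array. Figures were drawn with matplotlib 3.10.9.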

Additional observations from a re-analysis of the deposited data

Results flagged for a closer look

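The probe set annotated to both Hoxb8 and Hoxb7 lies outside the single-gene probe sets that the gene comparisons use, and it carried a signal above that of the wild-type arrays. Its mean was 221.9 in the mutant-labelled arrays and 16.4 in the wild-type arrays, with 0 overlap between the genotypes. Which of the 2 genes gave the signal was not tested.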

How the results depend on the processing

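HoxB genes called stayed at 0 in all 16 other settings. With the filter on a mean signal of at least 100, only Hoxb3, Hoxb4 and Hoxb5 were tested. The median HoxB difference of 0.55 was 0.77 with an offset of 1 and 0.13 with the fibroblast covariate, and 0.34 to 0.80 when single arrays were left out. The median of 0.76 with the filter covers only those genes and is the value of Hoxb5, so it reflects the smaller set. The median paralog difference, -0.80, was -0.98 and -0.43 with offsets of 1 and 64, and -1.06 to -0.51 without single arrays. This median includes negative values of Hoxb1, Hoxb7, Hoxb9 and Hoxb13, whose signals lay mostly or all below the offset. Hoxb2 was at -0.53, while Hoxb3, Hoxb4 and Hoxb5, with signal in every array, were at 1.1, 0.69 and 1.14. Signs turned with the fibroblast covariate for Hoxb2 (0.19), Hoxb3 (-0.064, second probe set -0.85), Hoxb4 (-1.02) and Hoxb5 (-0.42). Leaving out single arrays also turned signs, for Hoxb2 (-0.71 to 0.080, above 0 without mutant replicate 2), Hoxb4 (-0.044 to 1.01) and the second Hoxb3 probe set (-0.080 to 0.73), both below 0 without wild-type replicate 3, and the second Hoxb4 probe set (-0.18 to 0.10, above 0 without wild-type replicate 1). That probe set was at 0.015 with quantile normalization and 0.039 with median centring. The cause was not tested. Over all genes 168 were called, against 38 (offset 1), 264 (offset 64), 308 above a mean signal of 100, where fewer genes were tested, 438 with a trended robust prior, 0 with the fibroblast covariate (1196 at an unadjusted p under 0.05) and 2 to 76 without single arrays. With the replicate block 0 genes were called (2611 at an unadjusted p under 0.05), the adjusted p of the shared Hoxb8 and Hoxb7 probe set was 0.134, and it was the only HoxB call the block changed. In deviations from the genotype mean (not always in the log2 values themselves), every array correlated best with the array of the same number in the other genotype, a hint from the data and not the design. Median centring moved the median of all genes to 0.10 and split the calls into 120 higher and 88 lower, against 75 and 93. Folds of signals near the offset depend on it: Hoxb1 was at -2.87 (offset 1) and -0.33 (offset 64), and with an offset of 1 Hoxb9 was at 2.11 and Hoxb13 at 1.54.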
